A study of Homo sapiens with 24 samples.

Results

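The comparison described here is the change with time in culture of H2052 cells that carried a control mimic, read from the RNA of the whole cells. H2052 is an established human line, derived from a mesothelioma of the pleura, the membrane around the lung. It is 1 line, so the values describe that line. Cultures in RPMI 1640 medium with fetal bovine serum were transfected, with the lipid Lipofectamine RNAiMAX, with a scrambled non-targeting mimic at 20 nM that carried biotin at its 3′ end. All groups below share the lipid and the biotin, and untransfected cells were not analysed here. The members are the 6 input RNA libraries with this control mimic, 3 collected at 72 h and 3 at 12 h, of 24 libraries in 8 groups of 3. A library is called input because it came from cells handled in parallel with a streptavidin pull-down of the mimic. Set beside them, only where they differ, are the 3 input libraries at 72 h and 3 at 12 h with a miR-497-5p mimic, and the 3 pull-down libraries at 72 h and 3 at 12 h with the control mimic. All are poly(A) RNA read as pairs of 150 bases. Nothing in the labels tells whether the replicates of a group came from different cultures. The p-values thus measure the spread among these libraries, which may be technical.

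A culture seeded for transfection first attaches and spreads, then divides until space, nutrients and growth factors run short. Growing cells keep the D-type cyclins, the E2F factors and the replication genes active, and they make ribosomes and chaperones to match protein output. Cells that slow or leave the cycle are known for lower E2F and mitotic genes and for higher CDK inhibitors. Ribosomal protein mRNAs carry a pyrimidine stretch at their 5′ end, the TOP motif, through which mTOR sets how well they are translated. Mesothelial cells are of mesodermal origin, hold both keratins and vimentin, and respond readily to TGF-beta and inflammatory cues.

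Total counts per library were 25535580 to 27595617 at 72 h and 26432049 to 30602007 at 12 h. A count was seen for 24747 to 24888 genes at 72 h and 24510 to 25530 at 12 h. The 100 highest genes took 34.4 to 34.6% of counts at 72 h and 22.4 to 22.7% at 12 h. Ribosomal protein genes took 19.0 to 19.1% at 72 h and 9.84 to 10.1% at 12 h, and genes of the mitochondrial genome 5.75 to 6.01% and 3.92 to 4.13%. TMM scaling answers such a shift by factors of 0.942 to 0.944 at 72 h and 1.11 to 1.13 at 12 h. The biological coefficient of variation over the 12 input libraries was 0.0601, so small differences passed the test. Chi-square divided by its degrees of freedom was 1.78 to 2.02 between pairs of 72 h libraries and 2.95 to 5.71 between pairs of 12 h libraries, so the 12 h libraries differed more among themselves.

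The 12 h libraries also held transcripts of other tissues. The list of 25 nervous system markers was chosen after their values were seen. They summed to 187, 187 and 180 CPM of the library total, unscaled, at 72 h, against 594, 518 and 574 at 12 h. Of them 22 to 24 had a count at 72 h, against 25 at 12 h. GFAP (ENSG00000131095), the intermediate filament of astrocytes, had 0.121, 0.0384 and 0.125 CPM at 72 h, against 68.0, 90.9 and 89.7 CPM at 12 h. All other CPM are scaled by TMM. Every 12 h library was far above every 72 h library for GFAP. The 34 squamous epithelium markers summed to 188, 189 and 200 CPM of the total at 72 h, against 851, 783 and 357 at 12 h, and 17 to 19 of them had a count at 72 h, against 33 to 34 at 12 h. KRT14 and KRT6A, keratins of stratified epithelium, had no count in the 3 libraries at 72 h, while KRT10 made up most of the list's sum there with 154, 154 and 163 CPM. KRT13, a keratin of moist squamous lining, had 0.242, 0.307 and 0.291 CPM at 72 h, against 143, 119 and 45.0 CPM at 12 h. Haemoglobin transcripts summed to 0.417, 0.109 and 0.470 CPM of the total at 72 h, against 789, 649 and 0.556 at 12 h, so the third 12 h library lacked them. That library also held the least squamous RNA. Collection time cannot be told apart from anything else in which the 12 h and 72 h libraries differ as a set.

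**Figure D1:**
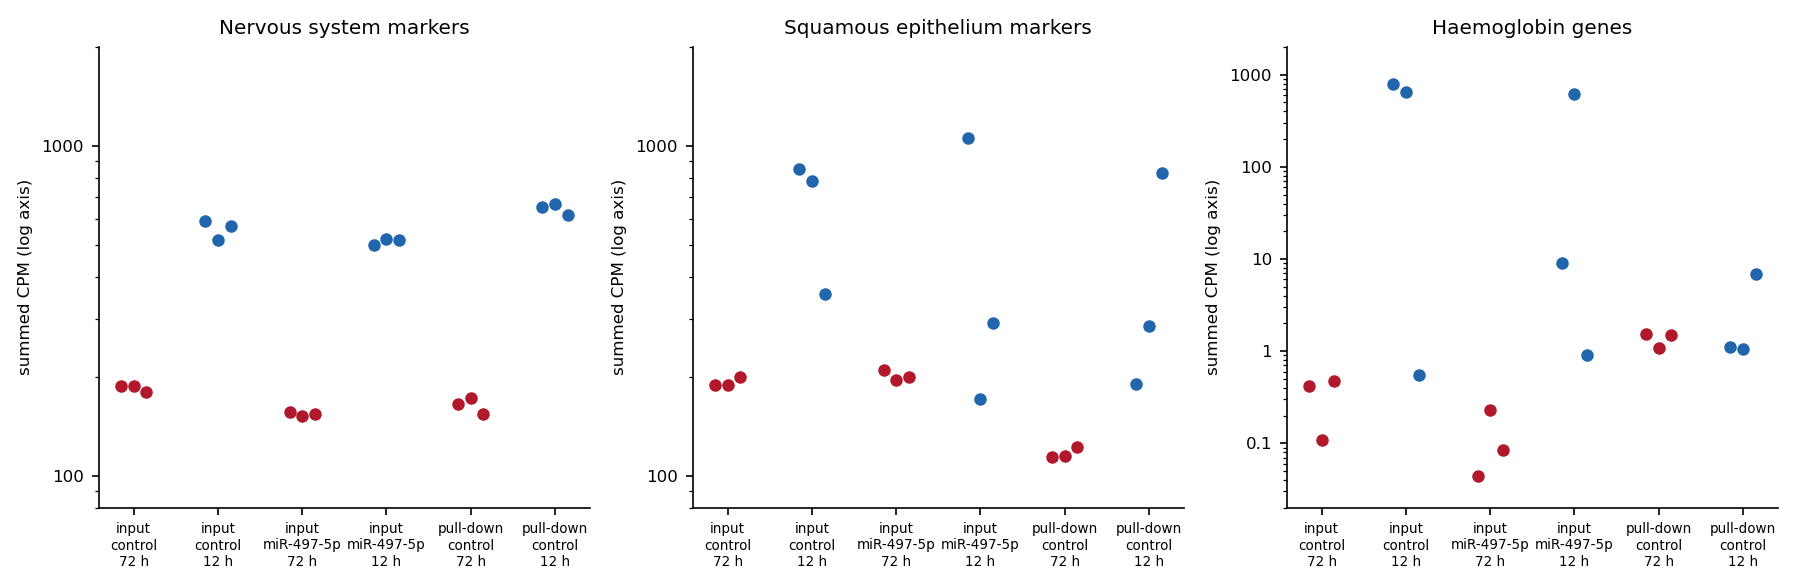
Summed level of nervous system markers, squamous epithelium markers and haemoglobin genes in CPM of the library total, on log axes, 1 point a library, for control input, miR-497-5p input and control pull-down libraries, 72 h in red and 12 h in blue. In control input libraries nervous system markers lie at 180 to 187 at 72 h and 518 to 594 at 12 h, squamous markers at 188 to 200 and 357 to 851, and 1 of the 3 libraries at 12 h has haemoglobin transcripts at 0.556, close to those at 72 h.

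Of 17335 genes tested, 12905 (74.4%) differed between 72 h and 12 h at an adjusted p under 0.05 in edgeR's quasi-likelihood test with Benjamini-Hochberg adjustment. At 72 h 6255 genes (36.1%) were higher and 6650 (38.4%) lower, 2514 (14.5%) and 2455 (14.2%) of them by at least 2-fold. The 3 libraries at 72 h and the 3 at 12 h did not overlap for 13439 genes (77.5%). A call alone is therefore common, and each list below is read against these shares and against the median log2 fold change over all genes, -0.002. Scaling by library totals, with no TMM factors, moved that median to -0.251 and gave 4488 higher and 8400 lower genes, 34.8% of calls higher in place of 48.5%. Log2 values below are changes at TMM scale, 72 h over 12 h, with the standard error. With the markers of other cells taken out of the count of calls, without a new fit, 6250 genes were higher and 6603 lower. Those totals only subtract the markers' own calls and cannot show any effect on other genes. With the third 12 h library alone for 12 h, the median over all genes was -0.021. TMM scaling holds that median near 0, and that library still held nervous system and squamous transcripts. The value therefore cannot show what other-cell RNA does to single genes. Of the other-cell markers themselves, 21 of 24 nervous genes fell and 3 rose, 19 of 34 squamous genes fell and 1 rose (EVPL), and 7 of 13 blood and vessel genes fell and 1 rose (CD68). The nervous genes were listed after their values were seen, so their falls are no separate evidence. Without the first 12 h library 2 squamous genes rose, and without the third no blood or vessel gene did. The part of such cells in each single result below was not tested. In bulk RNA, fewer cells of a type and less RNA per cell cannot be told apart.

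**Figure D2:**
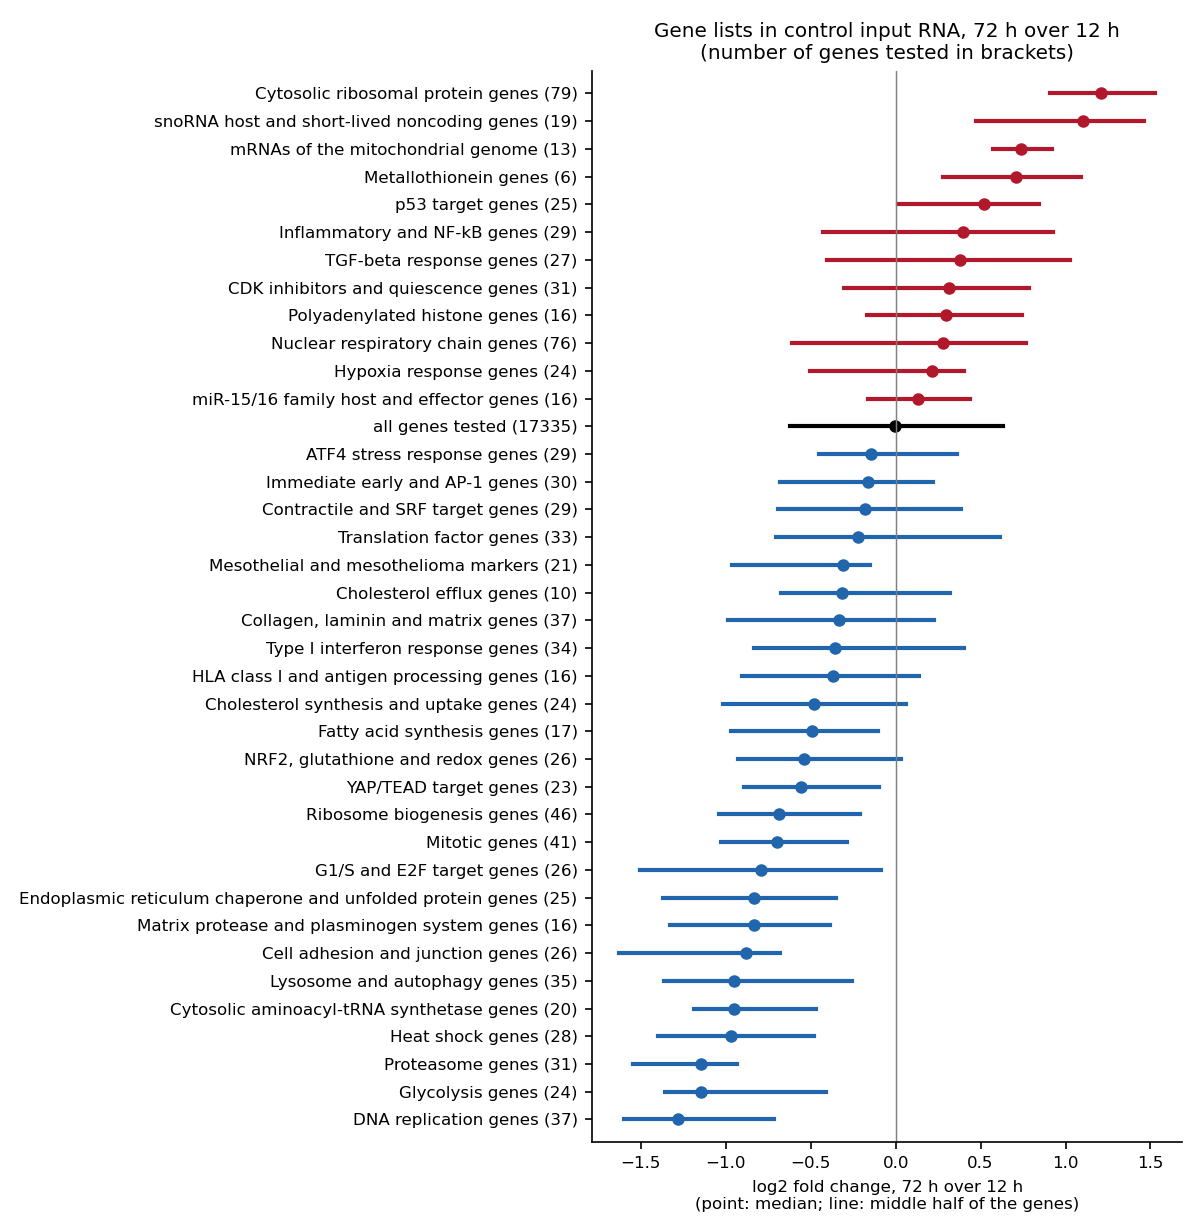
Median log2 fold change, 72 h over 12 h, of each gene list in the control input libraries, with its quartiles, red for a median above 0, blue for one below 0 and black for all genes tested. Ribosomal protein and snoRNA host genes stand at 1.21 and 1.11 and replication and proteasome genes at -1.28 and -1.15; the medians of the hypoxia, nuclear respiratory chain, immediate early, polyadenylated histone and miR-15/16 lists change sign under 1 or 2 other settings.

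The ribosomal protein genes rose almost as a block. Of 79 cytosolic ribosomal protein genes, 76 rose and 3 fell (RPL17, RPS10 and RPL21), with a median log2 fold change of 1.21 and quartiles of 0.91 and 1.53. By library totals 7 fell. RPL37 (ENSG00000145592, chromosome 5, 40825262 to 40835222), a protein of the large subunit, had 4280, 4300 and 4210 CPM at 72 h, against 906, 893 and 883 CPM at 12 h. The 6 values stand 3 and 3 apart, with a log2 fold change of 2.25 ± 0.03 and an adjusted p of 1.65e-44. RPL13, also of the large subunit, had 7200, 7400 and 7490 CPM at 72 h, against 1760, 1730 and 1710 CPM at 12 h (2.09 ± 0.04). RPS18, of the small subunit, had 3890, 3830 and 3870 CPM at 72 h, against 1010, 972 and 1010 CPM at 12 h (1.95). RPL17 went the other way, with 76.6, 72.4 and 80.8 CPM at 72 h, against 179, 181 and 183 CPM at 12 h (-1.24). Since only uniquely placed reads were counted, members with near-identical pseudogenes, RPL17 and RPL21 among them, are measured with less certainty.

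The elongation factors EEF1A1, EEF1B2, EEF1D, EEF1G and EEF2 rose, while most initiation factors fell. Of 33 translation factor genes 13 rose and 20 fell, with a median of -0.22. EEF1A1, which delivers aminoacyl-tRNA to the ribosome, had 12300, 12500 and 12200 CPM at 72 h, against 5290, 5310 and 5400 CPM at 12 h (1.21). EEF2, the translocation factor, had 2690, 2730 and 2760 CPM at 72 h, against 899, 912 and 884 CPM at 12 h (1.60). EIF4E, which binds the mRNA cap, had 23.2, 24.6 and 27.0 CPM at 72 h, against 74.8, 79.5 and 82.3 CPM at 12 h (-1.66). EIF3B, a scaffold of the initiation factor eIF3, fell by 1.84 on the log2 scale, and its partners EIF3E, EIF3F and EIF3H rose by 1.22, 0.84 and 1.02. EIF4EBP1, the mTOR target that holds EIF4E inactive, rose by 0.78. EEF1G also rose (2.53), but at a level of 9.15 to 10.2 CPM at 72 h, against 1.26 to 2.05 CPM at 12 h, and EEF1G, EIF4A1 and EIF3C are among genes whose near-identical copies take an unknown share of reads.

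The machinery that builds ribosomes did not follow the ribosomal proteins. Of 46 ribosome biogenesis genes 38 fell and 4 rose (IMP3, PPAN, NOP10 and NHP2), with a median of -0.69, and 2 rose without the third 12 h library, in DESeq2 or with no filter on low counts. By library totals 43 fell and 1 rose. NCL, the nucleolar protein nucleolin, had 158, 163 and 164 CPM at 72 h, against 398, 401 and 404 CPM at 12 h (-1.31). BOP1, a large subunit assembly factor, had 80.2, 81.4 and 83.3 CPM at 72 h, against 224, 226 and 214 CPM at 12 h (-1.44). GAR1, of the pseudouridine-making snoRNPs, fell by 1.51, and FBL, the methyltransferase fibrillarin, fell by 0.74. MYC, whose protein drives ribosome biogenesis genes, had 83.6, 84.0 and 86.7 CPM at 72 h, against 135, 136 and 132 CPM at 12 h (-0.66). The letters of the MYC E-box, CACGTG, stand in 38.3% of the biogenesis promoters and in 8.99% of all 17768 promoter windows of tested genes. NOP10, which rose (0.34), holds a match as well. The part of MYC in these changes was not tested. Promoter windows are the RefSeq windows of 250 bases before to 50 after a start site, searched on both strands. A gene with several starts has several windows, and genes without a window are left out. The 17768 windows came from 12189 of the 17335 tested genes. Each share of promoters here and below counts windows, not genes.

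A run of at least 6 pyrimidines that begins with C, from 10 bases before to 5 after the start, marked 55 of 78 ribosomal protein starts (70.5%) and 3223 of 17768 starts of all tested genes (18.1%). It marked 7 of 47 biogenesis starts (14.9%), 5 of 9 starts of translation factors that rose (55.6%) and 6 of 29 starts of those that fell (20.7%). Over all genes the run was in 19.4% of the starts of genes that rose and 17.4% of those that fell. Genes with the run had a median log2 fold change of -0.04 over all tested genes and of 1.37 among ribosomal protein genes. For genes without it the medians were -0.11 and 1.03. The run is a match of letters near an annotated start and not a measured TOP mRNA.

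The genes of a list of small nucleolar RNA hosts and other noncoding RNAs rose together. Of 19 such genes 19 rose, with a median of 1.11, although SNHG29 rose only by 0.08 and 1 gene fell by library totals. GAS5, named for its rise in growth arrest, had 85.6, 89.5 and 80.3 CPM at 72 h, against 24.6, 25.9 and 25.3 CPM at 12 h (1.75). SNHG6 had 309, 303 and 316 CPM at 72 h, against 86.2, 87.9 and 89.3 CPM at 12 h (1.82). MALAT1, a nuclear long noncoding RNA, had 1290, 1270 and 1260 CPM at 72 h, against 495, 477 and 364 CPM at 12 h (1.51). The pyrimidine run marked 7 of 17 host gene starts (41.2%). By annotation, 1240 of 2098 lncRNA genes rose and 87 fell (median 0.94), whereas 4435 of 14001 protein-coding genes rose and 6370 fell (median -0.15). BCYRN1, a small cytoplasmic RNA of neurons and tumours with many genomic copies, had 2250, 2170 and 2340 CPM at 72 h, against 247, 234 and 242 CPM at 12 h (3.22 ± 0.10).

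Shorter genes had higher log2 fold changes at 72 h, a pattern that moved with several of the lists above. Over 17335 genes the log2 fold change had a Spearman correlation of -0.263 with exon length, and over 17185 genes one of 0.125 with GC content. These are descriptions across genes, which are not independent replicates. In bins of 3466 to 3468 genes, those up to 2121 bases had a median of 0.68, and those from 7605 bases one of -0.16. Within the bin of shortest genes, 1357 protein-coding genes that encode no ribosomal protein had a median of 0.25, 17 ribosomal protein genes one of 1.24 and 5 proteasome genes one of -0.96. With the replicate number as a block and the length trend removed, 71 ribosomal protein genes rose and 6 fell. Their median was then 1.15, against 1.21 without the correction, and that of the snoRNA host list 1.05, against 1.11. With the same correction the medians of the DNA replication, proteasome and glycolysis lists were -1.12, -1.31 and -1.02, against -1.28, -1.15 and -1.15 without it. The sign of the median changed under it for the nuclear respiratory chain and polyadenylated histone lists and for no other list.

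**Figure D3:**
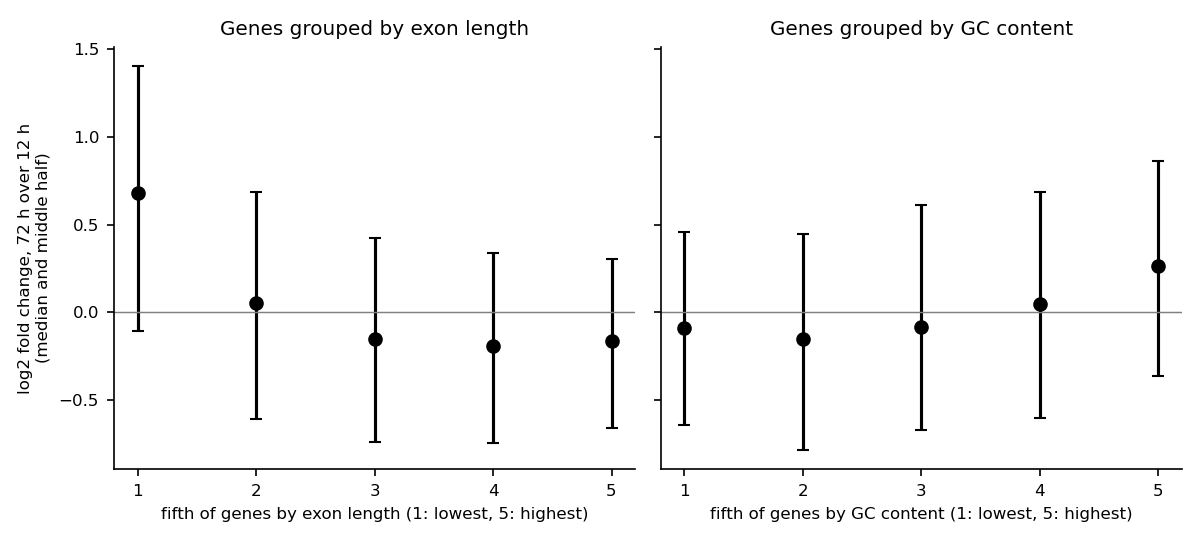
Median log2 fold change, 72 h over 12 h, with quartiles, of tested genes split into 5 bins of exon length and 5 of GC content in the control input libraries. The bin of shortest genes stands at 0.68 and the 3 bins of longest genes at -0.15 to -0.19, while the bins of GC content run between -0.15 and 0.27.

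Genes of DNA replication fell nearly as a block. Of 37 replication genes 33 fell and none rose, with a median of -1.28 and 23 of them down by at least 2-fold. CDC45 (ENSG00000093009, chromosome 22, 19479457 to 19520612), part of the replicative helicase, had 6.65, 6.68 and 6.03 CPM at 72 h, against 39.7, 36.1 and 38.5 CPM at 12 h. The log2 fold change was -2.56 ± 0.08, with an adjusted p of 2.28e-30. MCM7, of the helicase ring, had 23.9, 22.0 and 23.7 CPM at 72 h, against 73.9, 78.5 and 76.1 CPM at 12 h (-1.72). PCNA, the sliding clamp, had 88.9, 88.9 and 82.0 CPM at 72 h, against 206, 215 and 223 CPM at 12 h (-1.31). The 4 genes that did not pass were CDT1, GINS2, POLE and ORC6, with log2 values of 0.07, -0.07, -0.10 and -0.12. CDT1 loads the helicase, GINS2 is part of it and POLE is the polymerase of the leading strand.

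The letters read by E2F factors, TTCCCGC and TTGGCGC on either strand, stand in 9.07% and 4.25% of all promoter windows. They stand in 17 (41.5%) and 10 (24.4%) of 41 replication windows, which came from 32 genes. To show where they lie, the 30 bases around the match are given for 5 genes that fell, 5′ to 3′ on the gene's strand in RefSeq's GRCh38.p14, with the match in capitals. A match is a description of these letters, not a bound site. CDT1, GINS2 and POLE, which did not pass the test, hold a match as well.
MCM3 (chr6:52284898-52284927, minus strand): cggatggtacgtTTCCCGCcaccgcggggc
MCM7 (chr7:100101567-100101596, minus strand): ccagctcggaccGCGGGAAacccggcgcct
PCNA (chr20:5126664-5126693, minus strand): gcagcgtcagggGCGGGAAaaggcgtgcgt
RFC3 (chr13:33818082-33818111, plus strand): gatttggagctcGCGGGAAaacttgtctct
MCM6 (chr2:135876577-135876606, minus strand): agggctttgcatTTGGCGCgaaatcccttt

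Genes that start S phase split. Of 26 G1/S genes 18 fell and 5 rose (TFDP1, E2F3, MYBL2, SKP2 and CDK6), with a median of -0.80, and by library totals 2 rose. CDK2, the kinase of cyclins E and A, had 26.7, 30.4 and 28.5 CPM at 72 h, against 114, 120 and 114 CPM at 12 h (-2.02). CDK4, the partner of the D cyclins and a gene the study names, had 109, 115 and 109 CPM at 72 h, against 366, 373 and 369 CPM at 12 h (-1.74). Its close relative CDK6 had 73.5, 78.2 and 74.8 CPM at 72 h, against 43.0, 46.5 and 50.3 CPM at 12 h (0.70). Both kinases phosphorylate RB1, and they moved in opposite directions. CCND1, also named by the study, had 433, 428 and 429 CPM at 72 h, against 663, 698 and 696 CPM at 12 h (-0.67), and CCND3 fell by 1.27. CCNE2 fell by 2.28, while CCNE1 and E2F1 did not pass the test, at -0.15 and -0.07.

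Mitotic genes fell less and less evenly. Of 41, 32 fell and 8 rose, with a median of -0.70, and by library totals 4 rose. MAD2L1, of the spindle checkpoint, had 25.1, 23.7 and 22.1 CPM at 72 h, against 113, 117 and 117 CPM at 12 h (-2.29). PLK1, the polo kinase that opens mitosis, had 42.7, 40.1 and 39.8 CPM at 72 h, against 171, 178 and 174 CPM at 12 h (-2.09). CCNB1 and CDK1, which together form the mitotic kinase, fell by 1.36 and 0.90. WEE1 and PKMYT1, the kinases that hold CDK1 inactive and that the study names, fell by 0.86 and 1.15. WEE1 had 18.7, 18.2 and 18.9 CPM at 72 h, against 31.5, 35.7 and 34.3 CPM at 12 h. MKI67, the proliferation antigen, fell by only 0.35, with 144, 149 and 147 CPM at 72 h, against 177, 193 and 191 CPM at 12 h. CENPE and CENPF, long proteins of the kinetochore, rose by 1.08 and 1.04, and TOP2A, ASPM, HMMR, CENPA, CDC25B and UBE2C rose by 0.12 to 0.64.

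The cell-cycle homology region, TTTGAA, stands in 26 of 41 mitotic promoter windows (63.4%) and in 10.7% of all. None of 41 replication windows holds it. The mitotic and the replication windows each came from 32 genes. CCAAT stands in 75.6% of mitotic windows and 34.0% of all. The homology region is known as a site of the DREAM complex, which represses cell cycle genes in quiescence. The same 30-base windows are given for 4 mitotic genes that fell, again with the match in capitals.
PLK1 (chr16:23678848-23678877, plus strand): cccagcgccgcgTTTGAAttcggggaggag
CCNB2 (chr15:59105105-59105134, plus strand): agcgacgcggtaTTTGAAtcctggaacaag
CDC20 (chr1:43358791-43358820, plus strand): cctctcgtacccTTCAAAtcgcgctccgcc
KIF23 (chr15:69414282-69414311, plus strand): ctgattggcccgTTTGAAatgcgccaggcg
ASPM, CENPA, HMMR and TOP2A, which rose, hold a match as well.

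Among brakes on the cycle the gains were selective. Of 31 CDK inhibitor and quiescence genes 16 rose and 10 fell, with a median of 0.31, but by library totals 12 rose, 13 fell and the median was 0.065. YPEL3 (ENSG00000090238, chromosome 16, 30092314 to 30096915), a growth-suppressing gene that p53 can induce, had 55.4, 52.4 and 53.2 CPM at 72 h, against 4.46, 4.46 and 4.93 CPM at 12 h. That is 11.6-fold (log2 3.53 ± 0.07, adjusted p 3.16e-37), and the libraries are far apart. MXD4, which opposes MYC at its sites, had 180, 181 and 189 CPM at 72 h, against 59.2, 58.9 and 58.1 CPM at 12 h (1.64). CDKN1C, the inhibitor p57, had 8.18, 9.37 and 9.15 CPM at 72 h, against 2.65, 2.94 and 2.94 CPM at 12 h (1.64). CDKN1A, p21, rose by only 0.28, and CDKN1B, p27, fell by 0.79. BTG1, BTG2, CCNG2 and KLF9, which restrain division, rose by 0.82, 0.76, 1.06 and 1.21. CDKN2A, the gene of p16, and CDKN2B, of p15, had no count at 72 h. At 12 h they had 0.839, 0.760 and 0.235 CPM and 1.11, 1.02 and 0.705 CPM, each lowest in the third library, as the squamous markers were. Against a floor of 3 counts a library their 12 h means lie at least 5.08-fold and 7.86-fold above 72 h. With no count at 72 h, both genes could pass the filter on low counts only through other input libraries. The direction of their change was therefore set in advance, and whether the cells lowered either gene was not tested.

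Targets of p53 rose more often than they fell, with 16 of 25 up, 6 down and a median of 0.52, although by library totals 10 fell. BBC3, the death protein PUMA, had 32.6, 35.0 and 34.7 CPM at 72 h, against 10.4, 9.94 and 9.66 CPM at 12 h (1.77). ZMAT3, an RNA-binding growth suppressor, had 201, 209 and 199 CPM at 72 h, against 64.8, 62.3 and 66.4 CPM at 12 h (1.66). MDM2, the ligase that degrades p53, had 361, 356 and 363 CPM at 72 h, against 184, 193 and 199 CPM at 12 h (0.91). The DNA repair genes XPC and POLH in the list fell, by 0.80 and 0.72, as did the death receptor FAS, by 0.49.

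**Figure D4:**
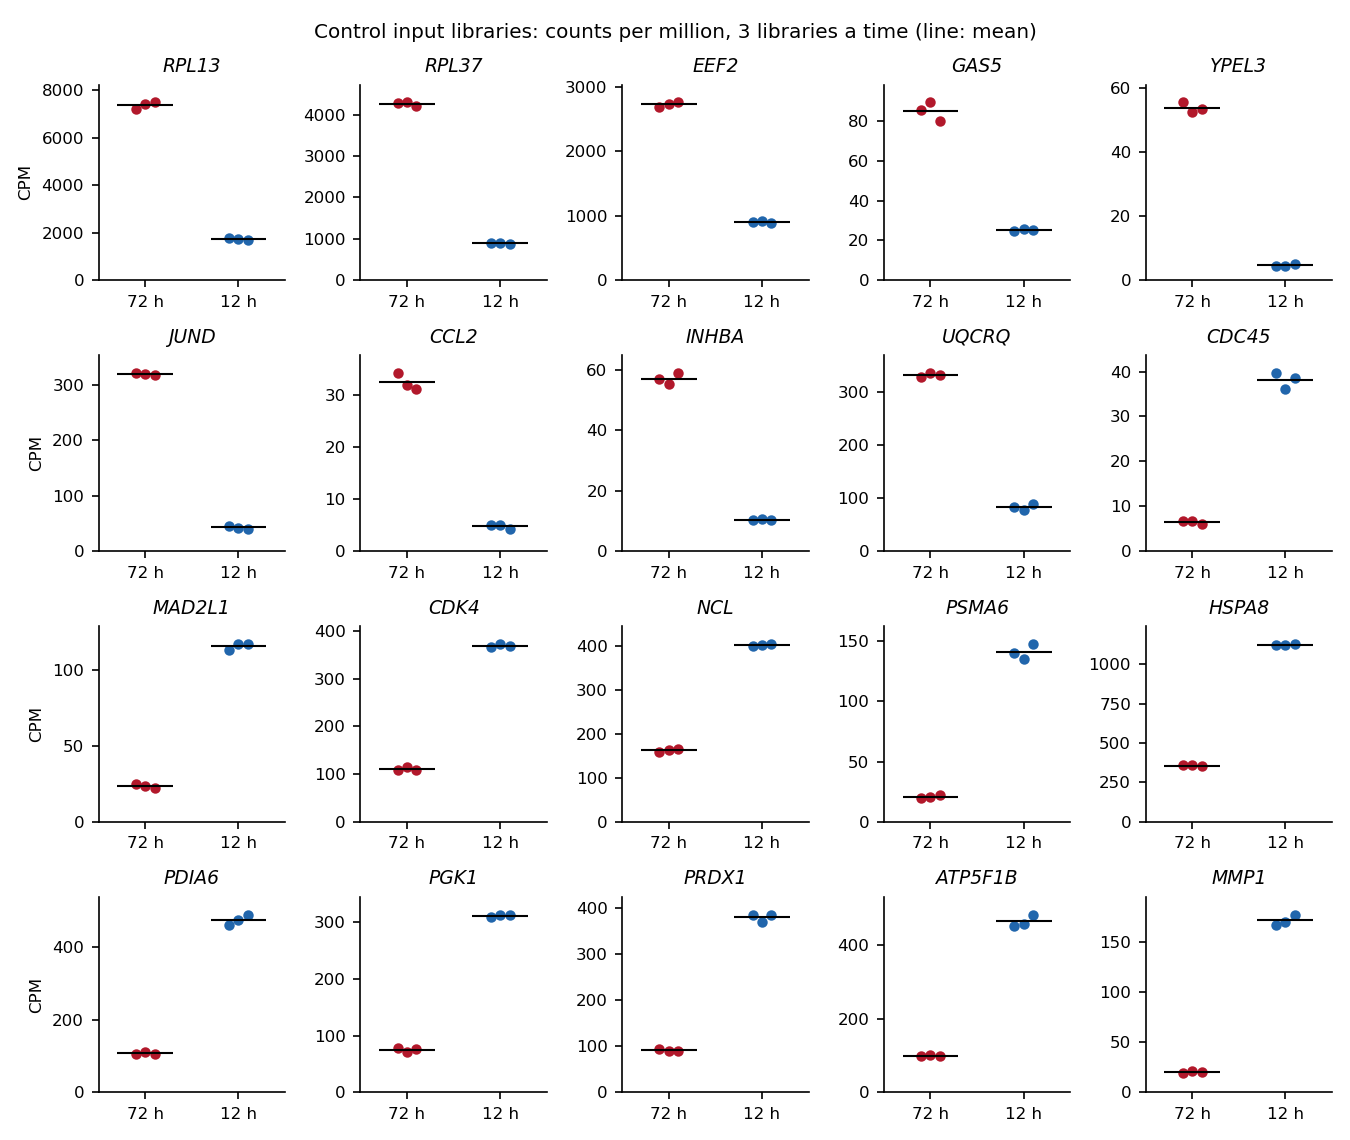
Level in CPM after TMM scaling, on linear axes that start at 0 and differ between panels, of 20 named genes in each of the 6 control input libraries, 72 h in red and 12 h in blue, 1 point a library and a black line at the mean. YPEL3 lies at 52.4 to 55.4 CPM at 72 h and 4.46 to 4.93 at 12 h, MMP1 at 19.1 to 21 and 167 to 177, and the points of each time sit close together relative to the gap.

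The proteasome fell as a whole. All 31 proteasome genes tested fell, with a median of -1.15 and 22 of them by at least 2-fold. PSMA6, of the core ring, had 19.5, 20.8 and 21.9 CPM at 72 h, against 140, 135 and 148 CPM at 12 h (-2.77 ± 0.05, adjusted p 1.07e-38). PSMD2, of the regulatory particle that feeds the core, had 129, 130 and 127 CPM at 72 h, against 501, 517 and 508 CPM at 12 h (-1.99). The smallest drop was that of PSMA7, which fell by 0.25. By contrast PSMB9 and PSMB10, subunits of the immune form of the proteasome, rose by 0.24 and 0.31.

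Chaperones fell in both the cytosol and the endoplasmic reticulum. Of 28 heat shock genes 25 fell and 2 rose, with a median of -0.97. HSPA8, the constitutive HSP70, had 357, 359 and 352 CPM at 72 h, against 1120, 1120 and 1130 CPM at 12 h (-1.66 ± 0.03). HSP90AA1 and HSP90AB1 fell by 1.19 and 1.32, and CCT2, of the folding ring for actin and tubulin, by 1.55. CRYAB, a small heat shock protein, and HSF1, the factor that drives the list, rose by 1.03 and 0.73. HSPA1A fell by 2.95 with 5.00, 4.53 and 1.12 CPM at 12 h, so the third 12 h library stood apart, as it did for the squamous markers. A heat shock element, read as 3 alternating blocks of the factor's short repeat, stands in 7 of 38 promoters of the list (18.4%) and in 0.321% of all. Windows of 30 bases of 3 genes that fell carry it in capitals.
HSPA8 (chr11:123062346-123062375, minus strand): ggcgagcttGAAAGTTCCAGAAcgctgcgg
HSP90AB1 (chr6:44247769-44247798, plus strand): gggagcaggTTCTGGAAGATTCatgggctc
HSP90AA1 (chr14:102087112-102087141, minus strand): ggagggttcTTCCGGAAGGTTCgggaggct

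In the endoplasmic reticulum list 19 of 25 fell and 4 rose, with a median of -0.83, and by library totals 1 rose. PDIA6, a disulfide isomerase, had 105, 112 and 106 CPM at 72 h, against 459, 475 and 489 CPM at 12 h (-2.14). HSPA5, the chaperone BiP and a standard mark of the unfolded protein response, had 184, 182 and 183 CPM at 72 h, against 488, 507 and 512 CPM at 12 h (-1.46). The genes of the ATF4 response were mixed, with 10 of 29 up, 12 down and a median of -0.14. ATF4 itself had 763, 756 and 761 CPM at 72 h, against 375, 394 and 392 CPM at 12 h (0.97), and NUPR1 and CEBPB rose by 1.84 and 1.74. Its well-known target ASNS did not pass (-0.11), DDIT3 fell by 0.45 and PSAT1, of serine synthesis, by 1.03. Aminoacyl-tRNA synthetases, many of which ATF4 can induce, fell in 19 of 20 cases (median -0.95). SARS1 had 26.9, 30.3 and 29.8 CPM at 72 h, against 90, 83.8 and 90 CPM at 12 h (-1.60), and QARS1 alone rose (1.05).

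Lysosomal genes fell as well, with 27 of 35 down, 4 up and a median of -0.95, and by library totals 2 rose. PSAP, the precursor of the saposins, had 131, 132 and 128 CPM at 72 h, against 435, 443 and 431 CPM at 12 h (-1.75). LAMP1, of the lysosomal membrane, fell by 1.53, and ATP6V0D1, of its proton pump, by 2.11. TFEB, the factor that drives lysosomal genes, did not pass the test, at 2.46, 3.45 and 2.16 CPM at 72 h, against 2.55, 2.81 and 2.79 CPM at 12 h.

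Of 24 glycolysis genes 21 fell and 1 rose, with a median of -1.15, and with the block and length correction 3 rose. PGK1, which makes ATP in the pathway, had 77.7, 72.0 and 76.5 CPM at 72 h, against 309, 313 and 314 CPM at 12 h (-2.05). ENO1, PKM and LDHA fell by 1.51, 1.43 and 1.28. The exception was GAPDH, which the study names and which is often taken as a stable standard. It had 3680, 3640 and 3670 CPM at 72 h, against 2880, 2890 and 2890 CPM at 12 h (0.34 ± 0.03, adjusted p 4.68e-16).

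Genes of the hypoxia response did not move with glycolysis. Of 24, 13 rose and 7 fell with a median of 0.21, but by library totals 7 rose, 8 fell and the median was -0.04. VEGFA, the vascular growth factor that the study names, had 22.8, 22.4 and 25.5 CPM at 72 h, against 18.0, 16.9 and 16.1 CPM at 12 h (0.47). HIF1A, the hypoxia factor's mRNA, had 26.9, 29.4 and 27.0 CPM at 72 h, against 58.8, 55.7 and 56.0 CPM at 12 h (-1.03). CA9, a sensitive hypoxia mark, did not pass the test (0.90).

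Subunits of the respiratory chain moved both ways. Of 76 nuclear genes 45 rose and 27 fell with a median of 0.28, but with a replicate block and the length trend removed 36 rose, 38 fell and the median was -0.04. ATP5F1B, the catalytic subunit of ATP synthase, had 99.9, 101 and 99.6 CPM at 72 h, against 454, 459 and 484 CPM at 12 h (-2.22). UQCRQ, a small subunit of complex III, had 328, 335 and 332 CPM at 72 h, against 82.8, 77.5 and 88.5 CPM at 12 h (2.00). Core subunits such as SDHA and ATP5F1A fell by 1.40 and 2.07, and accessory ones such as NDUFB1 and NDUFA3 rose by 1.67 and 1.48. IDH3A (ENSG00000166411, chromosome 15, 78131498 to 78171945), of the citric acid cycle, had 4.63, 5.83 and 5.24 CPM at 72 h, against 56.6, 60.7 and 56.9 CPM at 12 h, 11.1-fold lower at 72 h. Of the 13 mRNAs of the mitochondrial genome 11 rose and MT-ATP8 fell (median 0.74), whereas with the block and length correction 5 rose and 4 fell. MT-ND4 had 13900, 13400 and 13300 CPM at 72 h, against 3900, 3960 and 3810 CPM at 12 h (1.80).

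Of 26 redox genes 18 fell and 6 rose, with a median of -0.54. PRDX1, a peroxiredoxin, had 95.2, 90.3 and 89.9 CPM at 72 h, against 386, 369 and 384 CPM at 12 h (-2.05), and the NRF2 targets SRXN1, GCLC, HMOX1 and NQO1 fell by 1.83, 1.17, 0.98 and 0.57. The selenoenzymes GPX4 and GPX1 rose by 1.80 and 1.25. GPX4, which guards lipids from peroxidation, had 1500, 1520 and 1550 CPM at 72 h, against 438, 441 and 433 CPM at 12 h. FTL, the ferritin light chain, rose by 1.47. Of 6 metallothionein list genes tested 5 rose and none fell (median 0.71), while by library totals 3 rose and 1 fell; 1 also fell without the second 12 h or without the first 72 h library. MT2A had 1230, 1240 and 1240 CPM at 72 h, against 552, 567 and 545 CPM at 12 h (1.16).

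Lipid synthesis leaned downward. Of 24 cholesterol genes 16 fell and 6 rose (median -0.48), and of 17 fatty acid genes 12 fell and 3 rose (median -0.49). By library totals, or with the third 12 h library alone for 12 h, 3 cholesterol genes rose. HMGCS1, an early enzyme of cholesterol synthesis, had 31.6, 31.2 and 30.3 CPM at 72 h, against 63.3, 61.8 and 61.5 CPM at 12 h (-1.0). SCD, which desaturates fatty acids, fell by 0.99 and ACLY, which feeds both pathways with acetyl-CoA, by 1.06. Of 10 efflux genes 7 fell and 3 rose (median -0.32), with LPCAT3 and ABCG1 down by 2.40 and 2.08 and NPC2 up by 1.26.

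Inflammatory genes rose more often than they fell. Of 29 tested 18 rose and 7 fell, with a median of 0.39, while by library totals 14 rose with a median of 0.145, and with the block, length and GC correction 14 rose and 9 fell with a median of 0.22. Among ligands, CCL2 (ENSG00000108691, chromosome 17, 34255274 to 34257208), which draws monocytes, had 34.2, 31.9 and 31.1 CPM at 72 h, against 5.07, 4.92 and 4.17 CPM at 12 h (2.78 ± 0.08, adjusted p 1.6e-32). IL6 had 21.8, 20.9 and 18.0 CPM at 72 h, against 5.71, 5.85 and 5.76 CPM at 12 h (1.81), and LIF, of the same cytokine family, rose by 1.49. Outside the list, TNFRSF9, a receptor of the TNF family, rose by 2.81, and SOCS1, which blunts cytokine signalling, had 17.0, 17.9 and 16.6 CPM at 72 h, against 1.85, 1.75 and 2.91 CPM at 12 h (2.97). BIRC3, an NF-kB target that blocks cell death, had 119, 117 and 113 CPM at 72 h, against 27.9, 30.2 and 28.0 CPM at 12 h (2.02). RELB and NFKB2, of the noncanonical NF-kB arm, rose by 1.20 and 0.84, and NFKBIA, the inhibitor that NF-kB induces, by 0.61. NFKB1, of the canonical arm, fell by 1.27. LCN2 fell by 4.80 with 7.89, 5.68 and 2.50 CPM at 12 h, the lowest again in the third 12 h library, and it is expressed by squamous epithelium too.

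A form of the NF-kB site stands in 10 of 27 promoters of the inflammatory list (37.0%) and in 1.56% of all promoter windows. A few are shown as windows of 30 bases with the match in capitals. The last is from NFKB1, which fell.
IL6 (chr7:22727117-22727146, plus strand): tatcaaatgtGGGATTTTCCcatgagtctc
NFKB2 (chr10:102395674-102395703, plus strand): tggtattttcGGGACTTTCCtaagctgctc
NFKBIA (chr14:35404811-35404840, minus strand): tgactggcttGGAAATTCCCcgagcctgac
NFKB1 (chr4:102501300-102501329, plus strand): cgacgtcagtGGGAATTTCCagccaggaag
The match therefore did not go with 1 direction.

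Interferon genes leaned the other way, with 17 of 34 down, 10 up and a median of -0.36, and by library totals 6 rose. ISG15, a ubiquitin-like target, had 27.8, 29.8 and 27.5 CPM at 72 h, against 9.94, 9.41 and 10.3 CPM at 12 h (1.52). The interferon-stimulated response element stands in 22 of 35 promoters of the list (62.9%) and in 2.9% of all. Of 16 HLA and antigen processing genes 9 fell and 4 rose (median -0.37), none rose by library totals and 2 rose with the third 12 h library alone for 12 h. HLA-C, which presents peptides, had 59.9, 61.7 and 62.4 CPM at 72 h, against 179, 183 and 174 CPM at 12 h (-1.54), and HLA-B and B2M fell by 1.11 and 0.92.

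Of 30 immediate early genes 11 rose and 13 fell, with a median of -0.16. By library totals 7 rose, 18 fell and the median was -0.41, while with the third 12 h library alone for 12 h 11 rose, 9 fell and the median was 0.08. With the block and length correction 12 rose and 9 fell, and without the second 12 h or the third 72 h library 11 rose and 10 fell. JUND (ENSG00000130522, chromosome 19, 18279694 to 18281622), a member of AP-1 that is present in resting cells, had 321, 320 and 318 CPM at 72 h, against 45.2, 41.6 and 40.2 CPM at 12 h (2.92 ± 0.08, adjusted p 4.5e-12). JUNB and IER3 rose by 1.14 and 1.42. FOS and EGR1, which growth factors induce, did not pass the test, and the third 12 h library stood apart from the others. FOS had 4.39, 4.49 and 3.74 CPM at 72 h, against 14.8, 12.2 and 3.20 CPM at 12 h. ETV4 and ETV5, outputs of ERK signalling, fell by 1.74 and 1.95, and DUSP1, a phosphatase of MAP kinases, by 1.36.

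TGF-beta response genes rose more often than they fell, with 16 of 27 up, 8 down and a median of 0.38. By library totals 13 rose, 10 fell and the median was 0.129. INHBA, whose dimer is activin A, had 57.0, 55.2 and 59.0 CPM at 72 h, against 10.2, 10.7 and 10.2 CPM at 12 h (2.46 ± 0.08). PMEPA1, a membrane inhibitor of the pathway, had 35.9, 36.5 and 38.8 CPM at 72 h, against 8.43, 8.82 and 8.34 CPM at 12 h (2.12). SMAD6, SMAD7 and SKIL, also inhibitors, rose by 2.03, 1.75 and 1.57. The receptor TGFBR2 and the shared factor SMAD4 fell by 0.41 and 0.49, while TGFB1, TGFBR1 and SMAD3 rose by 0.63, 0.60 and 0.78. SNAI1 and SNAI2, factors of the mesenchymal state, rose by 1.00 and 1.05.

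Matrix proteases fell, with 13 of 16 down, 2 up (1 by library totals) and a median of -0.84. MMP1 (ENSG00000196611, chromosome 11, 102789401 to 102798160), the interstitial collagenase, had 19.1, 21 and 19.9 CPM at 72 h, against 167, 170 and 177 CPM at 12 h, 8.57-fold lower at 72 h (log2 -3.10 ± 0.05, adjusted p 7.15e-42). MMP2, a gelatinase, was the one protease that rose by more than 2-fold (1.26). Of 37 matrix genes 21 fell and 9 rose (median -0.33). The laminin chains LAMB3 and LAMA3, of epithelial basement membrane, fell by 1.59 and 0.99. COL5A1, a fibril collagen, had 81.6, 80.7 and 83.1 CPM at 72 h, against 27.7, 27.7 and 28.1 CPM at 12 h (1.55). POSTN, LUM, ELN and COL7A1 fell by 3.12 to 5.49 but stayed at or under 4.5 CPM in every library, and each was lowest at 12 h in the third library.

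Adhesion genes fell almost throughout, with 20 of 26 down, 1 up (F11R) and a median of -0.88. CTNNB1, beta-catenin, had 22.4, 21.8 and 18.0 CPM at 72 h, against 99.3, 97.2 and 97.1 CPM at 12 h (-2.24). CDH2, the cadherin of mesothelium, had 22.5, 24.0 and 22.3 CPM at 72 h, against 54.6, 57.8 and 54.3 CPM at 12 h (-1.28). CDH1, the epithelial cadherin, fell by 6.85 with 5.34, 3.96 and 1.67 CPM at 12 h, following the order of the squamous markers over those libraries. By library totals, or with the third 12 h library alone for 12 h, none rose.

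Of 23 YAP/TEAD targets 17 fell and 5 rose (median -0.56), and by library totals 3 rose. IGFBP3 had 138, 136 and 137 CPM at 72 h, against 530, 532 and 537 CPM at 12 h (-1.96), and the classic targets CCN2, ANKRD1 and CCN1 fell by 1.14, 0.46 and 0.28. TEAD letters, GGAATG, stand in 10 of 20 promoters of the list (50%) and in 11.7% of all. Contractile genes were closer to even, with 17 of 29 down, 10 up and a median of -0.18. TAGLN, an actin-binding SRF target, fell by 1.45, whereas MYH9, nonmuscle myosin, rose by 0.76. TUBA1B, an alpha-tubulin with near-identical relatives, had 251, 257 and 255 CPM at 72 h, against 1740, 1750 and 1780 CPM at 12 h (-2.79).

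Mesothelial identity was checked with its markers. VIM had 1850, 1850 and 1810 CPM at 72 h, against 1070, 1100 and 1110 CPM at 12 h (0.75), and KRT8 and KRT18 were each between 700 and 864 CPM in all 6 libraries. WT1, a mesothelial transcription factor, had 10.6, 10.6 and 12.0 CPM at 72 h, against 21.3, 19.7 and 18.2 CPM at 12 h (-0.84). MSLN, mesothelin, had 52.4, 57.9 and 53.8 CPM at 72 h, against 68.4, 67.4 and 67.7 CPM at 12 h (-0.31). CALB2, calretinin, a defining mark of mesothelium, averaged 1.27 CPM at 72 h and 1.57 CPM at 12 h and did not pass the test. Of 21 tested markers 15 fell and 5 rose (median -0.31), and 3 rose by library totals or with the third 12 h library alone for 12 h. ITGA6, an integrin of basal attachment, had 45.1, 42.8 and 45.5 CPM at 72 h, against 249, 253 and 263 CPM at 12 h (-2.52). KRT5, MUC16 and KLK11, which squamous or glandular epithelium also expresses, were near or at 0 at 72 h. KRT5 had 0, 0.0768 and 0 CPM at 72 h, against 108, 107 and 19.7 CPM at 12 h.

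Histone mRNAs that carry a poly(A) tail were mixed, with 8 of 16 up, 5 down and a median of 0.30, but with the block and length correction 5 rose, 6 fell and the median was -0.06. By library totals 5 rose and 6 fell as well. H2AZ1, a variant that dividing cells express, had 305, 310 and 313 CPM at 72 h, against 859, 845 and 856 CPM at 12 h (-1.46). The replication-linked genes H1-2 and H2BC5, whose poly(A) forms are known from resting cells, rose by 1.46 and 1.44, at 5.08 to 6.86 CPM at 72 h, against 1.59 to 3.04 CPM at 12 h. Of 16 genes of microRNA processing and of the miR-15/16 loci 8 rose and 6 fell (median 0.13), but by library totals 3 rose, 8 fell and the median was -0.12. DROSHA, the nuclear microRNA enzyme, fell by 1.02 and DICER1, the cytoplasmic one, rose by 0.63, while AGO2, the slicing Argonaute, did not pass (0.01).

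Among genes averaging 5 CPM or more, other strong rises outside the lists included several genes with uncertain counts. HCFC1R1, a regulator of the cell cycle cofactor HCFC1, had 109, 116 and 118 CPM at 72 h, against 18.8, 19.3 and 16.8 CPM at 12 h (2.64). ANKRD36C, of a family of near-identical copies, rose by 2.70. FOXN3-AS1 and TNS2-AS1, antisense RNAs, rose by 3.16 and 2.80, and counting by strand is not stated, so reads of the partner gene cannot be told apart. RPLP0P9, TMSB4XP4 and ENSG00000213058, processed pseudogenes, rose by 3.26, 2.82 and 3.80, and reads of their parent genes cannot be told apart. Of 143 tested genes with no count at 72 h, 121 were called lower, 7 of them in the 3 lists of other-cell markers, and of 6 with no count at 12 h, 6 were called higher. Such genes could pass the filter on low counts only through other input libraries, so the direction of these calls was set in advance.

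Whether the same lists moved in RNA that the control mimic pulled down was read in a separate fit of the pull-down libraries, from cells handled in parallel but other libraries. There 9119 of 17477 genes (52.2%) passed, 4087 (23.4%) higher and 5032 (28.8%) lower at 72 h. The spread was larger, with a biological coefficient of variation of 0.349. By library totals 2817 were higher and 6705 lower, 29.6% of calls higher in place of 44.8%, whereas with the replicate block and length correction 4554 were higher and 4232 lower (51.8%). Of 5990 genes that rose in the input and were tested in both, 2683 rose in the pull-down, which is 44.8% of the input's and 67.7% of the pull-down's. Of 6475 that fell, 3600 fell in the pull-down, 55.6% of the input's and 73.2% of the pull-down's. Replication genes fell in 24 of 37 cases in the pull-down (median -0.91), proteasome genes in 23 of 31 (-1.20), glycolysis genes in 20 of 24 (-1.09) and adhesion genes in 22 of 26 (-1.40). Ribosomal protein genes were 39 of 79 up and 26 down in the pull-down, with a median of 0.19, below the 1.21 of the input. For snoRNA host genes 6 of 19 rose and 9 fell (median -0.43), and of mRNAs of the mitochondrial genome none rose and 8 of 13 fell (median -0.68). The difference between input and pull-down was not tested.

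The time change was also set against that of cells with the miR-497-5p mimic, with a test of the difference between the time changes. It passed for 8451 genes (48.8%), 3902 (22.5%) with a larger log2 time change with miR-497-5p and 4549 (26.2%) with a smaller one. Of 6255 genes that rose in control cells 4798 rose with miR-497-5p, 76.7% of the control's and 72.9% of the other list, and of 6650 that fell 5330 fell with it, 80.2% and 76.2%. For cell cycle genes the time change was smaller, which means a deeper fall or a lesser rise, with miR-497-5p for 29 of 37 replication genes, 32 of 41 mitotic genes and 16 of 26 G1/S genes, and larger for 0, 1 and 4. Replication genes had a median of -1.83 with miR-497-5p and -1.28 with the control, and mitotic genes one of -1.34 and -0.70. Nuclear respiratory chain genes differed in the same direction, with 61 of 76 smaller, and a median of -0.39 with miR-497-5p and 0.28 with the control, where the sign changes with the length correction. Ribosomal protein genes rose in both, 68 of 79 with miR-497-5p (median 1.13) and 76 with the control (1.21). Proteasome genes fell in 31 of 31 cases in both, with medians of -1.52 and -1.15. For mRNAs of the mitochondrial genome the change was larger with miR-497-5p in 11 of 13 (1.22 and 0.74).

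**Figure D5:**
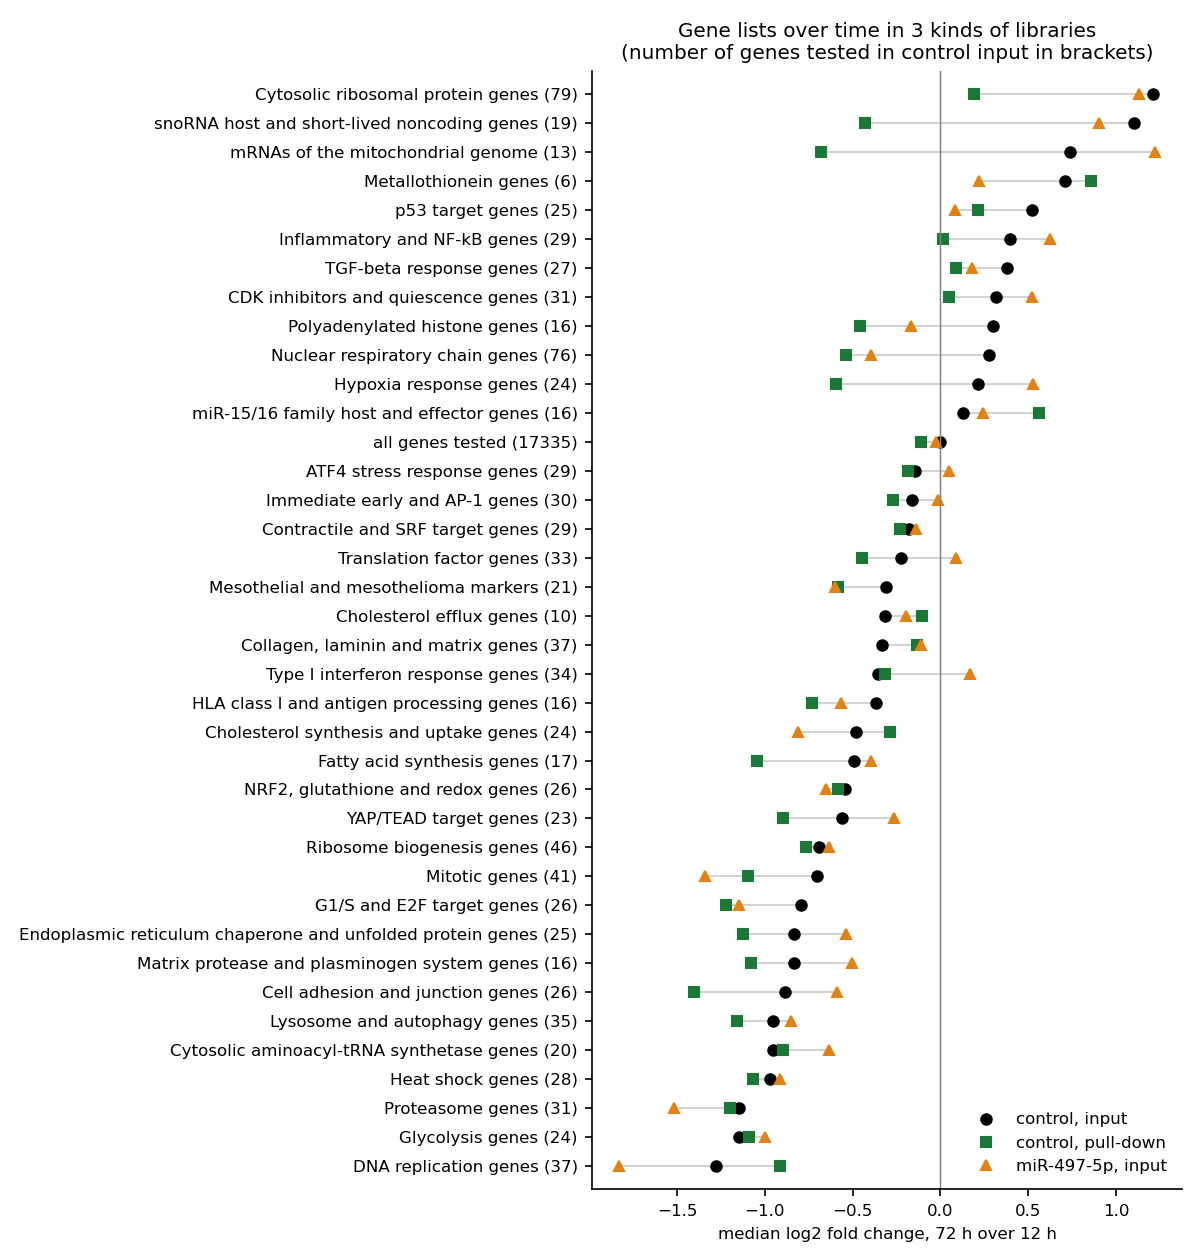
Median log2 fold change, 72 h over 12 h, of each gene list in control input libraries (black circles), control pull-down libraries (green squares) and miR-497-5p input libraries (orange triangles). Ribosomal protein genes stand at 1.21, 0.19 and 1.13 and replication genes at -1.28, -0.91 and -1.83; the control input medians of the hypoxia, nuclear respiratory chain, immediate early, polyadenylated histone and miR-15/16 lists change sign under 1 or 2 other settings.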

How the data were processed

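RNA-seq was made from poly(A) RNA of cells with the miR-497-5p or the control mimic, and each of the 24 libraries has a deposited table of raw counts over 57500 gene identifiers. Per the submitters' processing notes, the authors used Trimmomatic 0.36, STAR 2.5.2b and featureCounts of Subread 1.5.2 with GRCh38, and counted unique reads within exons. Reads of near-identical copies are thereby lost, and the sources used here do not give the strand setting. Positions and gene types come from GENCODE v44, which held 56410 identifiers (98.1%), and symbols from a reference of gene names. Exon lengths are those given with the deposited counts, and promoter windows come from RefSeq on GRCh38.p14.

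Counts were fitted in R 4.3.3 with edgeR 4.0.16 (TMM, default filter on low counts, robust quasi-likelihood test) over the 12 input libraries, and the contrast was control 72 h minus 12 h. A further contrast compared the time change of miR-497-5p and control cells, and the 12 pull-down libraries had a fit of their own. Adjusted p (Benjamini-Hochberg across the genes of a fit) under 0.05 made a call, and each gene's printed p comes from these fits. CPM, computed here, are scaled by TMM, except sums of markers, which are CPM of the library total. A floor of 3 counts a library was used for genes with no count. Lists are described by counts of calls and medians, with no set test. The fits were tested on simulated counts. Tables and figures were made with Python 3.11.15, pandas 2.3.3, numpy 2.4.6 and matplotlib 3.10.9.

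The members and the gene lists were chosen with earlier results of these data known. The rule for named genes takes the 6 genes that the series itself names, the 15 strongest rises and falls (mean CPM of 5 or more, groups that do not overlap), per list up to 4 genes by smallest adjusted p, the 6 largest differences in each direction between the time changes of the mimics, and the other-cell markers with the highest level. Other genes named, chiefly list members with a known role, and the list of nervous system markers were chosen after their values were seen. Alternatives were DESeq2 1.42.0, other scalings, no filter, only the control libraries, a replicate block, corrections for length and GC content, and each replicate left out. The correction for GC content, the fit with the third 12 h library alone and the count of calls without marker genes were chosen after seeing the data. A few genes that the rule names are not reported here.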

Additional observations from a re-analysis of the deposited data

Results flagged for a closer look

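The time change differed between cells with the miR-497-5p mimic and cells with the control mimic by the test of that difference itself. It was larger with miR-497-5p for 3902 genes and smaller for 4549 genes. The 6 largest differences each way, for genes averaging 5 CPM or more, are given as the log2 time change with miR-497-5p minus that with the control.

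Differences above 0 were led by KRTAP1-5, a keratin-associated protein gene, with 2.85. It had 31.1 CPM at 72 h and 3.18 CPM at 12 h with miR-497-5p. MMP1, the collagenase that fell in control cells, had 155 CPM at 72 h and 208 CPM at 12 h with miR-497-5p, a difference of 2.68. SERPINB2, an inhibitor of plasminogen activators, had 76.7 CPM at 72 h and 22.7 CPM at 12 h with miR-497-5p, a difference of 2.65. The remaining ones were DUSP6, a phosphatase of ERK, with 2.48, CLDN1, a tight junction protein, with 2.42, and HMGA2, a chromatin protein of embryonic and tumour cells, with 2.20.

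Differences below 0 were led by CYP26B1, which breaks down retinoic acid, with -2.40. TUBA1B had 52.7 CPM at 72 h and 1890 CPM at 12 h with miR-497-5p, a difference of -2.37. CKS1B, which binds CDKs, had 15.5 CPM at 72 h and 224 CPM at 12 h with miR-497-5p, a difference of -2.35. PKMYT1, the CDK1 inhibitor kinase named by the study, had 2.90 CPM at 72 h and 32.6 CPM at 12 h with miR-497-5p, a difference of -2.34. PKD1P5, a pseudogene with near-identical copies, had -2.34, and PIMREG, a mitotic regulator, had -2.28. In control cells PKD1P5 was the member of these 12 whose groups overlapped, with 8.34, 7.33 and 8.28 CPM at 72 h and 7.25, 7.93 and 9.51 CPM at 12 h.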

How the results depend on the processing

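Among control input libraries the numbers of higher and lower genes stayed within 1.5 times of 6255 and 6650 under every alternative run. DESeq2 gave 5855 and 6772, no filter 6190 and 7264, only the control libraries 6241 and 6474, and DESeq2 size factors in edgeR 6169 and 6733. Leaving out 1 replicate gave 5845 to 5999 higher and 6457 to 6560 lower. In the difference between mimics it gave 3593 to 3864 larger and 4243 to 4550 smaller, and in the pull-down 3614 to 3818 and 4488 to 4702. By library totals the difference between mimics had 3426 larger and 5030 smaller. With the replicate block there were 6263 higher and 6670 lower genes, and with length and GC content corrected as well 6118 and 6416. Deviations of libraries with the same number correlated at -0.013, -0.015 and -0.022, so no pairing by number was seen in them. This cannot tell whether libraries with the same number came from the same culture.

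Of 3237 values of 204 named genes under alternatives, 3197 kept direction and side of the threshold, 25 lost the call, 11 gained it and 4 reversed. KRTAP1-5 reversed with the block and length correction (-0.145) and with GC content added (-0.093), and MT1X with both corrections (-0.01). HBB was 0.72 with the third 12 h library alone, and it lost its call, as KRT17 did, without any 1 of the 72 h libraries. For HBB this held without the first or second 12 h library too. The calls of S100A9, KRT5 and SPINK5 were lost with the third 12 h library alone. The cause was not tested. Of 1274 list counts under alternatives 56 moved by over 1.5 times.

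Genes under about 1 CPM rest on few counts, and squamous and blood markers on 12 h libraries that differ among themselves.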

Other observations

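Some members of the lists moved in opposite directions in the input and in the pull-down of control cells, and were picked after their values were seen. Opposite calls were not rare over all genes tested in both. Of 5990 genes that rose in the input 699 fell in the pull-down, and of 6475 that fell 655 rose there. MKI67 had 436, 494 and 452 CPM in the pull-down at 72 h, against 59.0, 62.4 and 45.1 CPM at 12 h (log2 3.05 ± 0.11, edgeR adjusted p 7.67e-17). In the input it had 144, 149 and 147 CPM at 72 h, against 177, 193 and 191 CPM at 12 h. SRXN1, the sulfiredoxin that repairs peroxiredoxins, had 40.5, 28.1 and 39.3 CPM in the pull-down at 72 h, against 6.68, 7.30 and 10.6 CPM at 12 h (2.13 ± 0.23, adjusted p 1.7e-08), while in the input it fell by 1.83. TOP2A rose in both, with 1690, 1580 and 1490 CPM in the pull-down at 72 h, against 325, 272 and 224 CPM at 12 h (2.54 ± 0.11), and by 0.38 in the input. The difference between the assays was not tested.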
